A study of Mus musculus with 8 samples.

Results

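The 78 genes described here belong, with few exceptions, to families of transcription factors that pattern the embryo and build or defend the epidermis: HOX, FOX, SOX, KLF, GATA, GRHL, AP-2, IRF, STAT, the Elf and Etv genes of the ETS family, TEAD, PAX and LHX. They were chosen by gene symbol from the 9294 genes that the array table held, and each was represented by 1 probe set. Of the 78 symbols, 70 name members of these families, 7 name transcripts on the opposite strand of such a gene or overlapping it (Foxl2os, Gata5os, Hoxb5os, Lhx1os, Pax6os1, Sox2ot and Sox6os), and 1, Irf2bp1, names a protein that binds IRF2. No gene of the RUNX family was among them. A reference gene table lists 189 protein-coding mouse genes whose symbols match the same letters, of which 71 were measured here, so the families were sampled and not covered. Klf4, Klf5, Tfap2a, Tfap2c, Stat3, Sox9 and other well-known epidermal regulators were not analysed here.

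The values came from 8 one-colour arrays of keratinocytes from C57BL/6 mice. The 4 wild-type arrays measured cells of normal genotype, and the 4 knockout arrays measured Nfkbiz KO cells, which lack IkBz, a nuclear protein that tunes NF-kB targets. Cells of both genotypes carried the v-rasHa oncogene, an activated viral Ras, 3 days after its transduction, so each difference below is one between genotypes in the presence of the oncogene. The labels call the samples biological replicates and say neither how the Nfkbiz allele was made nor whether a culture came from 1 animal or from several.

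Transcription factors of these families bind short DNA motifs through a family-specific domain and switch target genes on or off. In epidermis, grainyhead-like (GRHL), GATA, KLF, AP-2 and ETS factors drive barrier formation and differentiation, and HOX genes record the position of a cell along the body. IRF and STAT factors carry signals of interferons and cytokines to DNA, TEAD factors receive the Hippo pathway cofactors YAP and TAZ, and many FOX, SOX, PAX and LHX genes mark particular lineages, among them mesenchyme, cilia, hair follicle and neural crest.

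Array medians lay between 4.49 and 4.57 and array lower quartiles between 3.33 and 3.39 on the log2 scale, and no detection calls were used. For 39 of the 78 genes both genotype means lay under the lowest array median, in a range where signal may be mostly background, and these genes included 13 of 23 HOX, 11 of 17 FOX and 5 of 9 SOX symbols. For the keratinocyte label, 5 markers were measured. Krt5, the basal keratin, had log2 signals of 13.42 ± 0.03 in wild-type cells and 13.29 ± 0.06 in knockout cells (SD, n = 4 per group). Cdh1 (means of 12.22 and 12.35), Col17a1 (11.04 and 10.73) and Itgb4 (9.66 and 9.64) were high too. The label was borne out by these but not by Krt15, at 4.63 and 4.74, just above the array medians. Krt14 was not analysed here. Markers of other cells were present too: the summed linear signal of 7 measured fibroblast markers was 769 to 834 in wild-type and 501 to 577 in knockout arrays, with 5 of the 7 called lower and 1 higher. Twist2, with log2 means of 8.51 and 7.49, had the highest signal of the 7 and so weighs most in this sum. The 4 melanocyte markers summed to 2840 to 2980 and 2210 to 2710, with 2 called lower. Of 10 leukocyte markers, summing to 307 to 342 and 286 to 301, 1 was called lower, and none of 7 endothelial markers was called by limma (131 to 136 and 117 to 138). Called in either direction were thus 85.7% of the fibroblast, 50% of the melanocyte and 10% of the leukocyte markers, against 8.9% of all genes. The marker lists were made with earlier results of these data known. In such bulk RNA, fewer cells of a type and less RNA per cell cannot be told apart.

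Of the 78 genes, 12 (15.4%) differed between genotypes in limma at a Benjamini-Hochberg adjusted p under 0.05, against 8.9% of all 9294 genes. The families were chosen with earlier results of these data known, so their shares cannot be read as an excess over all genes. Both directions were equally filled. Higher in the knockout were Irf1, Irf7, Irf9, Stat4, Tead2 and Foxj1, 6 genes where 4.47% of all genes were called higher, and lower were Grhl1, Grhl3, Klf10, Foxc2, Hoxb6 and Hoxa10, 6 genes where 4.43% of all genes were called lower. With each array centred on its median, 7 of the genes were higher and 5 lower, and among all called genes the share that was higher went from 50.2% to 60.6%. The median log2 difference, knockout minus wild-type, was -0.04 over the 78 genes and -0.01 over all genes. The 39 genes under the array medians held 3 of the calls (Stat4, Foxj1 and Hoxa10) and the other 39 held 9.

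**Figure D1:**
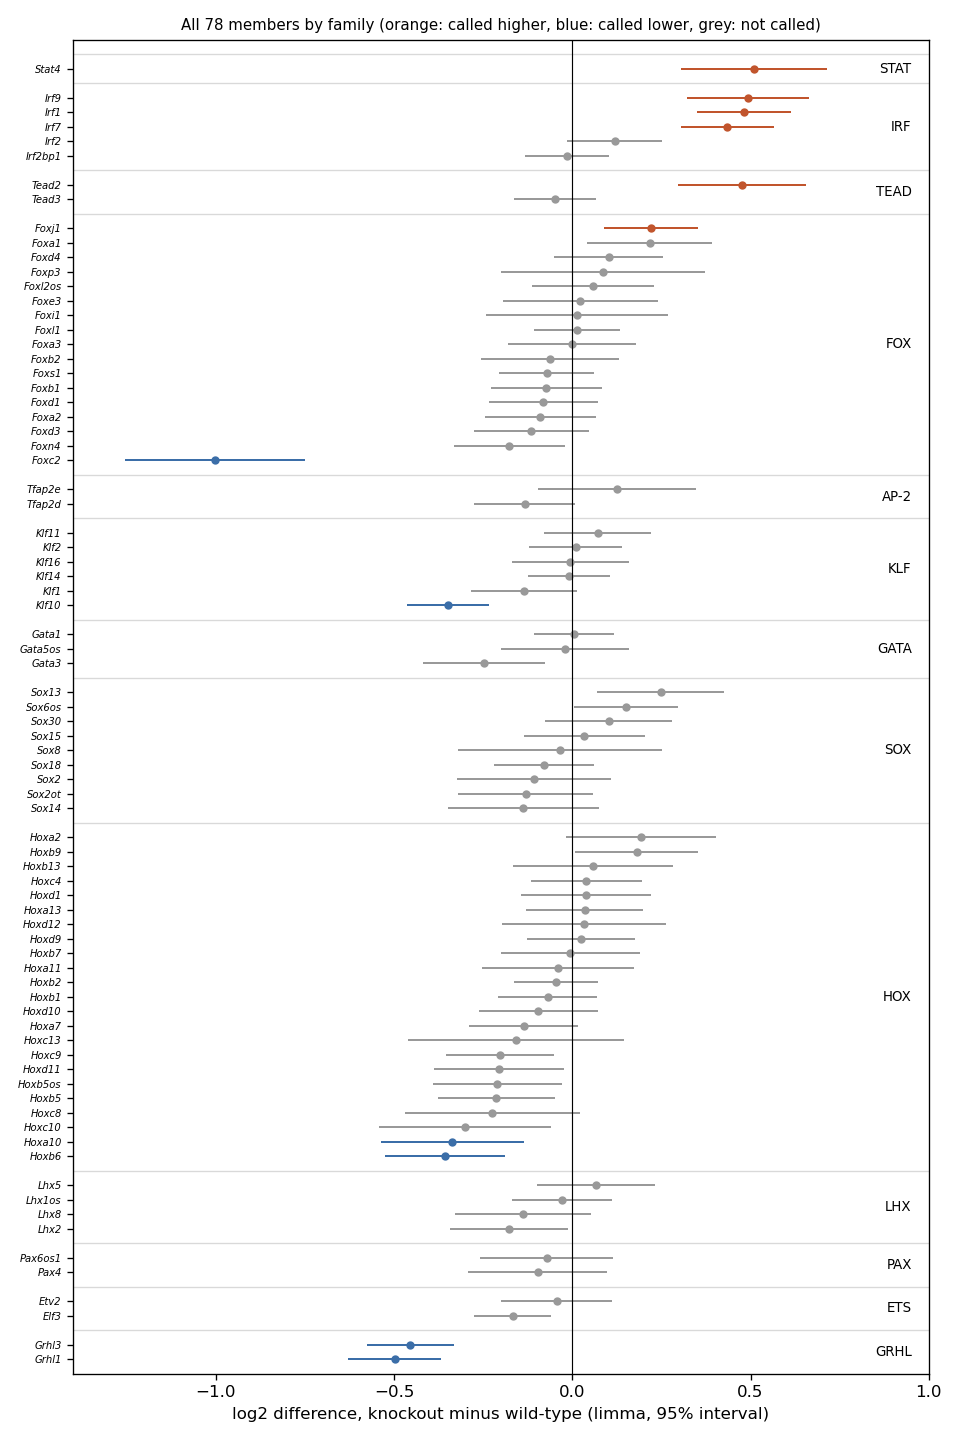
Log2 difference (x axis, knockout minus wild-type) of each of the 78 genes (rows, grouped by family), with the 95% interval from limma. The IRF, STAT and TEAD calls lie on the right at 0.44 to 0.51, the GRHL pair lies on the left at -0.50 and -0.45, Foxc2 stands at -1.0025, and 66 genes in grey were not called.

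The differences were small. Foxc2 fell by 2.00-fold in signal, and the other 11 called genes differed by 1.17-fold to 1.42-fold. Their median size, 0.47 on the log2 scale with Foxc2 included, compares with 0.35 over all called genes. The 4 knockout and 4 wild-type values did not overlap for 16 of the 78 genes (20.5%), against 15.9% of all genes. Of the 66 genes that were not called, 65 had a 95% interval of the difference within 0.5 on the log2 scale in either direction. The exception was Hoxc10, whose interval ran from -0.54 to -0.06. Of the 66 intervals, 13 excluded 0, that of Hoxc10 among them. The bound of 0.5 is wider than the median size of the called genes, so it does not set the 66 apart from them.

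The grainyhead-like genes fell together. GRHL1 and GRHL3 are related factors that switch on genes of cell adhesion and of the epidermal barrier, and GRHL3 is needed for barrier formation and wound closure in skin. Grhl1 had log2 signals of 9.49, 9.60, 9.64 and 9.55 in the wild-type arrays and of 8.97, 9.12, 9.13 and 9.07 in the knockout arrays. Every knockout value was thus below every wild-type value, and the log2 difference was -0.50 ± 0.06 (SE; limma adjusted p = 0.000217). Grhl3 had 8.76, 8.81, 8.91 and 8.87 in wild-type against 8.35, 8.43, 8.33 and 8.43 in knockout arrays. Its values did not overlap either, with a difference of -0.45 ± 0.05 (limma adjusted p = 0.000279). In linear signal the knockout cells were 1.41-fold lower for Grhl1 and 1.37-fold lower for Grhl3. These were the only GRHL genes measured, and both calls held in each of 15 alternative analyses. In the same arrays the keratinocyte markers Krt5, Itgb4, Cdh1 and Krt15 had differences of -0.13, -0.02, 0.12 and 0.11 and were not called (limma adjusted p = 0.167, 0.934, 0.265 and 0.678). The Krt5 values were nonetheless lower in the knockout without overlap, and the interval of its difference, -0.24 to -0.02, excluded 0. Col17a1 fell by 0.31 ± 0.07, and the 7 fibroblast markers had a median of -0.61. The part of these cells in the GRHL values was not tested.

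The promoters of both genes are shown because they moved together, as windows from 250 bases before to 50 bases after the RefSeq start site (build GRCm38.p6), 5′ to 3′ on the strand of the gene. Grhl1 has another annotated start, which is not printed. No capitals appear, since none of the motifs described with the IRF genes was found in them.
Grhl1, chr12:24572037-24572336, plus strand: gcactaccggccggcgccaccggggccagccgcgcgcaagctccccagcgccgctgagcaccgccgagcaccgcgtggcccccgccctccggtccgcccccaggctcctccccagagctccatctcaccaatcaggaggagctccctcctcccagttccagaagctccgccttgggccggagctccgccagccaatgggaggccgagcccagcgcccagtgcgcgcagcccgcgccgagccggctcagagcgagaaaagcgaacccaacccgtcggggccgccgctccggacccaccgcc
Grhl3, chr4:135573583-135573882, minus strand: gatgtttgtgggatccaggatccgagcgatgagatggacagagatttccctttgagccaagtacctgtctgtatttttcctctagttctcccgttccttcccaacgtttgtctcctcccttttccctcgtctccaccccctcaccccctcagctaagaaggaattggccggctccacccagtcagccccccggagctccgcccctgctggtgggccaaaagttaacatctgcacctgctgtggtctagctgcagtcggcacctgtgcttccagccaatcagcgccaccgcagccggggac

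Elf3 and the 3 GATA symbols were not called. Elf3, an ETS factor of differentiating epithelia, had 7.24, 7.23, 7.31 and 7.27 in wild-type and 7.06, 7.12, 7.10 and 7.09 in knockout arrays. The groups did not overlap, yet the difference of -0.17 ± 0.05 missed the threshold (limma adjusted p = 0.0521), and Elf3 passed in 4 of 15 alternatives, with adjusted p of 0.00938 to 0.151 over all of them. Gata3, which acts in barrier lipid synthesis and hair follicle fate, had 7.48, 7.58, 7.65 and 7.73 in wild-type and 7.35, 7.54, 7.32 and 7.24 in knockout arrays. One knockout value, that of replicate 2, lay inside the wild-type range, and the difference was -0.25 ± 0.08 (limma adjusted p = 0.0754). Gata3 passed in 4 of 15 alternatives, 1 of them without knockout replicate 2 (adjusted p = 0.0283). Gata1, the erythroid factor, had a difference of 0.01 with an interval of -0.10 to 0.12.

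Among 6 KLF genes, zinc finger factors that bind GC-rich promoter boxes, 1 was called (16.7%, against 8.9% of all genes). Klf10, an early response gene of TGF-beta signalling, had 9.45, 9.43, 9.45 and 9.42 in wild-type arrays and 9.01, 9.13, 9.15 and 9.05 in knockout arrays. The wild-type values lay within a narrow band and the knockout values lay below it, with a difference of -0.35 ± 0.05 (SE; limma adjusted p = 0.00117). Klf11, its closest relative in the family, had a difference of 0.07 ± 0.07 (adjusted p = 0.622). Klf1, Klf2, Klf14 and Klf16 had differences between -0.14 and 0.01.

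**Figure D2:**
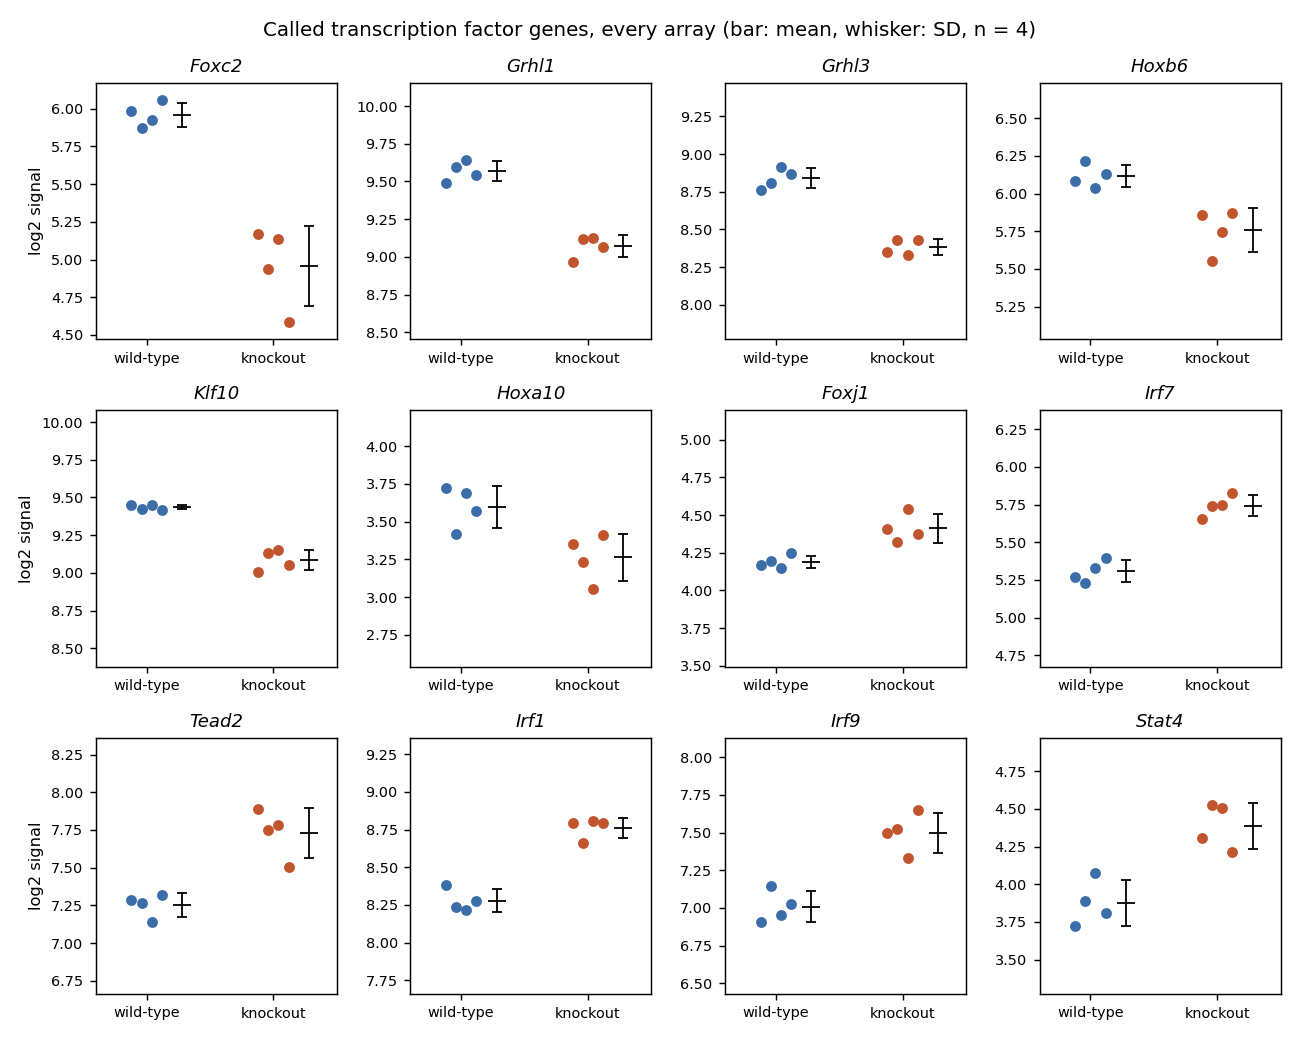
Log2 signal (y axis, each panel spanning the same range) of the 12 called genes in the 4 wild-type (blue) and 4 knockout (orange) arrays, with the mean and SD beside each group. In no panel do the groups overlap, the gap is widest for Foxc2, and it is narrow for Hoxa10 (3.42 against 3.41) and for Foxj1 (4.24 against 4.32).

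Of the 5 IRF symbols, 3 rose (60%, against 8.9% of all genes called) and 2 were not called. IRF1 is induced by interferon gamma and NF-kB, IRF7 amplifies type I interferon production, and IRF9 joins STAT proteins in the complex that turns on interferon-stimulated genes. Irf1 had 8.38, 8.24, 8.22 and 8.28 in wild-type arrays against 8.79, 8.66, 8.80 and 8.79 in knockout arrays, a log2 difference of 0.48 ± 0.06 (SE; limma adjusted p = 0.000302). Irf7 had 5.27, 5.23, 5.33 and 5.40 against 5.66, 5.74, 5.75 and 5.82, a difference of 0.44 ± 0.06 (limma adjusted p = 0.000606). Irf9 had 6.91, 7.14, 6.95 and 7.03 against 7.50, 7.52, 7.33 and 7.65, a difference of 0.49 ± 0.08 (limma adjusted p = 0.0018). For each of the 3 genes every knockout value exceeded every wild-type value, by a linear factor of 1.35 to 1.41 between the means, and the calls held in each of 15 alternatives. Irf2, which can act against IRF1 at the same sites, had 6.82, 6.81, 6.83 and 6.99 against 6.92, 7.01, 7.05 and 6.96. Its groups overlapped, and the difference of 0.12 ± 0.06 did not pass (limma adjusted p = 0.29, interval -0.01 to 0.25). Irf2bp1, the corepressor that binds IRF2, had a difference of -0.01 (interval -0.13 to 0.10).

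Of 7 STAT genes in the reference table, Stat4 was the one measured. STAT4 transmits interleukin-12 and type I interferon signals, mainly in lymphocytes. Stat4 had 3.72, 3.89, 4.08 and 3.81 in wild-type and 4.31, 4.52, 4.51 and 4.21 in knockout arrays, and every knockout value was the higher. The log2 difference was 0.51 ± 0.09 (SE; limma adjusted p = 0.00468). Both means, 3.88 and 4.39, lay under the array medians, so the size of this rise is of signals that may be partly background. The pan-T-cell markers in the same arrays, Cd3e and Cd3g, had differences of 0.00 and -0.06 and were not called (limma adjusted p = 0.997 and 0.728). Cd3e had a mean of 5.39 in both genotypes. The Cd3g means, 3.00 and 2.94, lay under the lower quartiles of the arrays, where a difference may not be seen. Over all 10 leukocyte markers, 9 differences were below 0, as were 54.5% of those of all genes. Tyrobp was the 1 called, lower by 0.25 ± 0.07 (limma adjusted p = 0.0367). The part of T cells or other leukocytes in the Stat4 value was not tested. Around the STAT genes, 5 of 24 listed receptors, kinases and inhibitors were measured and limma called none of them. The receptor gene Ifngr1 had a difference of 0.08, the kinase genes Tyk2 and Jak3 had 0.15 and -0.04, and the feedback inhibitor genes Socs1 and Cish had -0.17 and 0.03.

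The promoters of the genes that rose in this group were searched on both strands for 3 motifs: GAAA followed after any 2 bases by GAAA, the core of an interferon response element, TTCNNNGAA, the form of a STAT site, and GGGNNTTCC, a form of NF-kB site. RefSeq promoter windows existed for 55 of the 78 genes (69 windows, as some genes have several starts) and for 8 of the 12 called genes (13 windows). The interferon core was found in 3.44% of all 32851 windows in the reference, in 4 of the 69 (5.8%) and in 1 of the 13. STAT sites were in 8.3% of all windows, in 6 of the 69 (8.7%) and in 1 of the 13. The searched NF-kB letters were in 5.82% of all windows, in 6 of the 69 (8.7%) and in none of the 13. Other forms of NF-kB site were not searched, so a window without a match, that of Irf1 included, may still hold one. The shares among these few windows are descriptions without a test. In the lines below the matches stand in capitals: the STAT form in Irf1, at 90 bases before the start site, and the interferon core in the second listed start of Stat4, at 97 bases before it. Irf7 and Irf9 are shown for comparison and held no match in these windows. Irf1, Irf9 and Stat4 each have 1 other listed start, without a match.
Irf1, chr11:53769764-53770063, plus strand: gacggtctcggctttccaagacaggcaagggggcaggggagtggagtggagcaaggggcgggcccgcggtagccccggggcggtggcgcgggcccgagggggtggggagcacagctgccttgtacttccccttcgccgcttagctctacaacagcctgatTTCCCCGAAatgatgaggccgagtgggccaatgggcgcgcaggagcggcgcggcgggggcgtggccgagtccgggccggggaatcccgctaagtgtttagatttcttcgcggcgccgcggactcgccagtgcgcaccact
Stat4, chr1:52007990-52008289, plus strand: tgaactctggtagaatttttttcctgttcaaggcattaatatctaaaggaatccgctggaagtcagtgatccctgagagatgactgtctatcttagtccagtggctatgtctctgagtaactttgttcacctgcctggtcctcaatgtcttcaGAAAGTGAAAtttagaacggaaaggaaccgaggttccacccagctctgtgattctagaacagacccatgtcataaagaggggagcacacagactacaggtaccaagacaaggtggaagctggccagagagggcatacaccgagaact
Irf7, chr7:141266375-141266674, minus strand: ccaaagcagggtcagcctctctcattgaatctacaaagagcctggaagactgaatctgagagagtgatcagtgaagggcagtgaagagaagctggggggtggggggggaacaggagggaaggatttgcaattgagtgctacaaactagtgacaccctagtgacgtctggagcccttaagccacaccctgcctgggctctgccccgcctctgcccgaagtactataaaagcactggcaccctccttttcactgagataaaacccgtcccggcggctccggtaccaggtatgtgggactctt
Irf9, chr14:55603735-55604034, plus strand: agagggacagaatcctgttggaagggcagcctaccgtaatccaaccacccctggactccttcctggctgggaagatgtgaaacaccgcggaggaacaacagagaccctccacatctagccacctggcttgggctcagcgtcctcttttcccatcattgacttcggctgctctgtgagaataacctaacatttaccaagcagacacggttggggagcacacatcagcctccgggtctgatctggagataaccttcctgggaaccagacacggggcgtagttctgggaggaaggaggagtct

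Among genes that were not called, the window of Irf2 held all 3 motifs, 1 match of each, and that of Elf3 held an NF-kB form, GGAAATCCC on the gene's strand, 108 bases before the start site. No overlap between matches of different motifs occurred in these windows.

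One of the TEAD genes rose and the other did not. TEAD proteins bind DNA for the cofactors YAP and TAZ and share their targets. Tead2 had 7.29, 7.26, 7.14 and 7.32 in wild-type arrays against 7.89, 7.75, 7.78 and 7.50 in knockout arrays, a log2 difference of 0.48 ± 0.08 (SE; limma adjusted p = 0.00319). The lowest knockout value, that of replicate 4, was still above each wild-type value. Tead3 had a difference of -0.05 ± 0.05 (adjusted p = 0.661, interval -0.16 to 0.06), and the intervals of the pair do not meet, though the difference between them was not tested. Of 18 listed TEAD cofactors and Hippo pathway genes, 5 were measured and 1 was called, where 8.9% of all genes were. This was Ajuba, whose LIM protein inhibits LATS kinases and which rose by 0.21 ± 0.05 (limma adjusted p = 0.0324), a call that was lost in 7 of 15 alternatives, where the adjusted p reached 0.0892. Amotl2, an angiomotin that binds YAP, had a difference of 0.09. The cofactor genes Vgll1, Vgll2 and Vgll4 had differences of -0.02, -0.12 and -0.14, and none of these 4 was called.

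The 17 FOX symbols, for forkhead factors, held 1 fall, 1 rise and 15 genes that did not pass, a called share of 11.8% against 8.9% of all genes. Foxc2, a factor of mesenchyme and lymphatic vessels, had 5.99, 5.87, 5.93 and 6.06 in wild-type and 5.17, 4.94, 5.14 and 4.59 in knockout arrays. All knockout values lay well below the wild-type values, and replicate 4 was the lowest. The log2 difference was -1.0025 ± 0.11 (SE; limma adjusted p = 0.000186), and it was -0.88 without knockout replicate 4. It was the greatest difference among the 78 genes. Fibroblast-associated genes fell in the same arrays: Twist2, a mesenchymal factor, had -1.02 ± 0.06, the proteoglycan gene Dcn -0.97 ± 0.08, the matrix gene Dpt -0.85 ± 0.07, Thy1 -0.61 ± 0.08 and Lum -0.48 ± 0.09, while Postn rose by 1.47 ± 0.09 and Fap, at 3.22 and 3.33 near the lower quartile of the arrays, was not called. The part of such cells in the Foxc2 value was not tested.

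Foxj1, the master factor of motile cilia, had 4.17, 4.20, 4.15 and 4.24 in wild-type and 4.41, 4.32, 4.54 and 4.38 in knockout arrays. The difference of 0.22 ± 0.06 just passed (limma adjusted p = 0.04), with both means under the array medians, and the call was lost on leaving out any array other than knockout replicate 2, where the adjusted p reached 0.0977. Foxa1, a pioneer factor of endoderm, had a difference of similar size, 0.22 ± 0.08, with overlapping groups (adjusted p = 0.128). Foxn4, a factor of retinal and spinal progenitors, had 5.90, 5.95, 6.15 and 5.94 against 5.84, 5.69, 5.87 and 5.83. The groups did not overlap, but the difference of -0.18 ± 0.07 did not pass (limma adjusted p = 0.165). Foxd3, the neural crest factor, had -0.12 ± 0.07, and Foxp3, the factor of regulatory T cells, had 0.09 ± 0.13, neither called (adjusted p = 0.412 and 0.781). The remaining FOX symbols had differences between -0.09 and 0.10.

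HOX genes encode homeodomain factors whose combination marks position along the trunk and limbs, and skin cells keep part of this code in culture. The 23 symbols comprised 22 HOX genes and the transcript Hoxb5os. In limma, 2 of them fell, 21 were not called and no gene was higher, a called share of 8.7%, close to the background over all genes. Hoxb6 had 6.08, 6.21, 6.04 and 6.13 in wild-type and 5.86, 5.56, 5.75 and 5.87 in knockout arrays, which do not overlap. Its log2 difference was -0.36 ± 0.08 (SE; limma adjusted p = 0.0122), and the call held in each of 15 alternatives. Hoxa10 had 3.72, 3.42, 3.69 and 3.57 against 3.35, 3.23, 3.06 and 3.41, groups that just failed to overlap. Its difference of -0.34 ± 0.09 passed (limma adjusted p = 0.0411), but both means lay under the array medians, and the call was lost in 9 of 13 alternatives, with an adjusted p of up to 0.104.

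Differences below 0 were found for 15 of the 23 HOX symbols (65.2%), not far from the 54.5% of all genes. With arrays centred on their median 14 of 23 were below 0, and over fits without 1 array the count ran from 13 to 17. Both means lay under the array medians for 13 of the 23 symbols. Along the clusters, the 5 genes of paralogue groups 5 to 8 (Hoxb5, Hoxb6, Hoxa7, Hoxb7 and Hoxc8) all had differences below 0, between -0.36 and -0.01 with a median of -0.21. The 5 genes of groups 1 to 4 had a median of 0.04, and the 12 genes of groups 9 to 13 had a median of -0.07. These windows of the clusters were chosen after the values were seen and were given no test. The fibroblast markers, which come from cells with a HOX code of their own, had a median log2 difference of -0.61 in these arrays, and their part in the HOX values was not tested.

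In the Hoxb cluster, the neighbours of Hoxb6 differed among themselves. Hoxb5 had 3.67, 3.78, 3.66 and 3.71 in wild-type and 3.58, 3.35, 3.65 and 3.38 in knockout arrays, without overlap, but its difference of -0.21 ± 0.07 did not pass (limma adjusted p = 0.113) and both means were under the array medians. Hoxb5os had -0.21 ± 0.08 (adjusted p = 0.155), Hoxb7 -0.01 ± 0.09 (adjusted p = 0.985) and Hoxb9 0.18 ± 0.08 (adjusted p = 0.206). A further probe set that names both Hoxb7 and Hoxb8 was left out by the rule of 1 symbol. In the Hoxc cluster, Hoxc8, Hoxc9 and Hoxc10 had differences of -0.22, -0.20 and -0.30 with overlapping groups (adjusted p = 0.284, 0.0977 and 0.127), and Hoxc13, a factor of hair and nail keratin genes, had -0.16 ± 0.14. Hoxd genes lay between -0.21 and 0.04, with none called by limma. From a list of 11 partner genes of HOX proteins, 2 were measured, Tgif1 with 0.10 and Meis3 with -0.01, and neither was called.

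**Figure D3:**
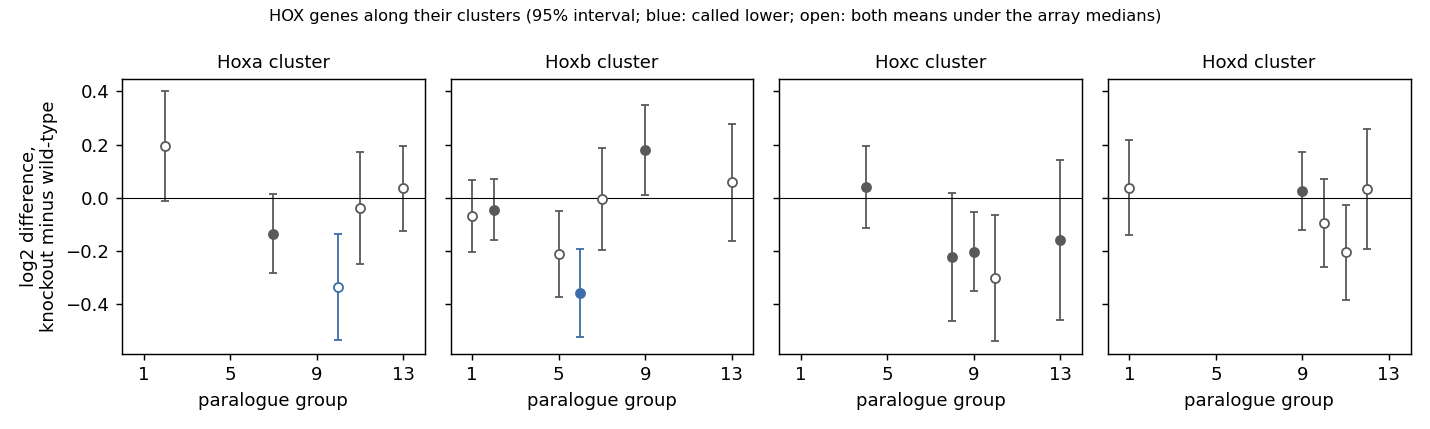
Log2 difference (y axis, knockout minus wild-type, with the 95% interval) of 22 HOX genes by paralogue group (x axis) in the Hoxa, Hoxb, Hoxc and Hoxd clusters. Blue marks Hoxb6 and Hoxa10, which were called lower, and open circles mark the 13 genes with both means under the array medians.

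None of the 9 SOX symbols passed in limma, where 8.9% of all genes did. Sox13, a gene of the SoxD group, had 6.41, 6.33, 6.14 and 6.42 in wild-type and 6.50, 6.45, 6.73 and 6.61 in knockout arrays. The knockout values were the higher without overlap, with a difference of 0.25 ± 0.08 (limma adjusted p = 0.088), and the gene passed in 3 of 15 alternatives, arrays centred on their median among them (adjusted p = 0.0488). Sox15, which is expressed in stratified epithelia, had 0.03 ± 0.08 (adjusted p = 0.869). Sox2, a stem cell factor, and its overlapping transcript Sox2ot had -0.11 and -0.13 at signals under the lower quartile of the arrays. Sox18, a factor of vascular endothelium, had -0.08. Melanocyte markers were present in these cultures (Dct at 10.58 and 10.40), and Sox10, the melanocyte SOX gene, was not analysed here.

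The remaining families held no call by limma. Lhx2, a LIM-homeodomain factor of hair follicle stem cells, had 5.54, 5.56, 5.31 and 5.68 in wild-type and 5.33, 5.35, 5.40 and 5.31 in knockout arrays. Wild-type replicate 3 lay just below the lowest knockout value and the other 3 wild-type values lay above the highest, so the groups overlapped. The difference was -0.18 ± 0.07 (limma adjusted p = 0.194), and without that array it was -0.25 (adjusted p = 0.0296). Lhx2 passed in no other alternative, and its limma adjusted p reached 0.367. Lhx8, Lhx1os and Lhx5 had differences of -0.14, -0.03 and 0.07. The AP-2 genes Tfap2d and Tfap2e, relatives of the epidermal AP-2 factors, had -0.13 and 0.13, the ETS gene Etv2, a factor of blood vessel development, had -0.04, and the pancreatic factor gene Pax4 had -0.10 (adjusted p = 0.267, 0.541, 0.796 and 0.601).

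Regulators outside these families were taken from 7 lists of partners and other transcription factors. Of 156 listed symbols 51 were measured, of which 4 were called higher and 7 lower (21.6%, against 8.9% of all genes). Some of them, such as Fos, Atf3 and Twist2, were known from earlier results of these data when the lists were made. The shares called in these lists therefore cannot be read as an excess over all genes. Within the list of other epidermal factors, 4 of 18 fell and 2 rose, with a median of -0.06. Prdm1, the gene of the repressor BLIMP1 that acts in late keratinocyte differentiation, had 8.29, 8.42, 8.52 and 8.52 in wild-type and 7.63, 7.81, 7.76 and 7.83 in knockout arrays. These did not overlap, and the difference was -0.68 ± 0.07 (SE; limma adjusted p = 8.6e-05). Cebpa, which promotes exit of keratinocytes from the cell cycle, fell by 0.43 ± 0.06 (adjusted p = 0.000637). Barx2, a homeobox gene, fell by 0.33 ± 0.08 (adjusted p = 0.0223), a call that was lost without wild-type replicate 3 or 4 or knockout replicate 4 (adjusted p up to 0.0638). Dlx2, a distal-less homeobox gene, rose by 0.41 ± 0.08 (adjusted p = 0.01). The other 2 calls, named after their values were seen, were Zfp750, a regulator of terminal differentiation downstream of p63, with -0.29 ± 0.06 (adjusted p = 0.0155), and Id3, an inhibitor of basic helix-loop-helix factors, with 0.30 ± 0.05 (adjusted p = 0.00393).

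Of 6 measured AP-1 genes, Atf3 rose by 0.66 ± 0.07 and Fos had a difference of -0.54 ± 0.06 (SE, limma adjusted p = 0.000104 and 0.000191). Junb, Fosb, Batf and Batf3 were not called. The called share was 33.3%, against 8.9% of all genes, with Atf3 and Fos known before the list was made. The groups did not overlap for 4 of the 6 genes (66.7%), against 15.9% of all genes. These included Junb and Batf as well as Atf3 and Fos. Of 9 mesenchymal transcription factors, with Twist2 known before the list was made, 2 fell, where 4.43% of all genes were called lower. These were Twist2 (limma adjusted p = 2.21e-06) and Twist1, which had 4.49, 4.29, 4.50 and 4.37 in wild-type and 4.10, 3.97, 4.24 and 4.10 in knockout arrays, a difference of -0.31 ± 0.07 (adjusted p = 0.0203). Both Twist1 means lay under the array medians, and its call was lost in 5 of the 8 fits that left out 1 array, with an adjusted p of up to 0.0607. Prrx2, Alx4, Osr1, Tcf21, Meox1, En1 and Snai1 were not called, with differences between -0.27 and 0.14. Among partners of RUNX, GATA, FOX and KLF factors, none of 6 was called by limma, with differences between -0.01 and 0.10, and Cbfb, the common partner of RUNX proteins, had 0.09.

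**Figure D4:**
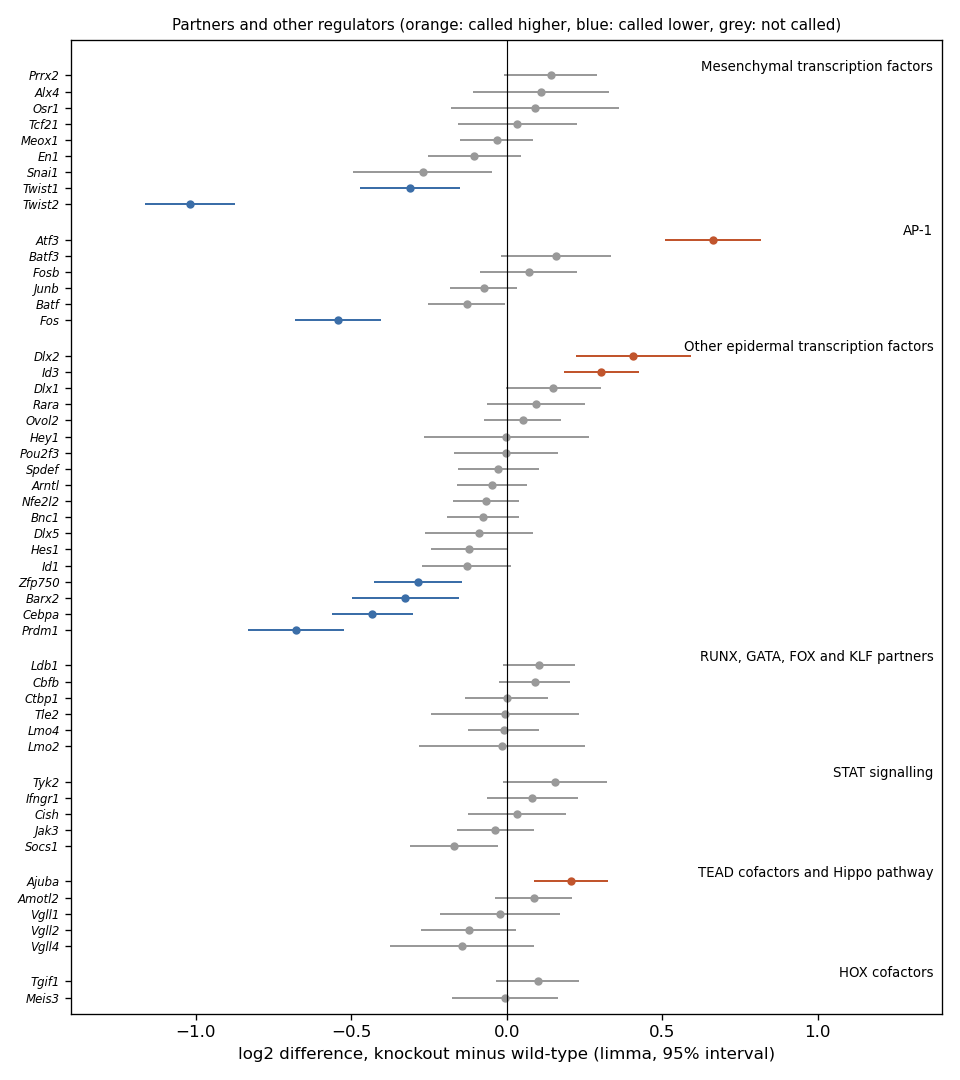
Log2 difference (x axis, knockout minus wild-type, with the 95% interval from limma) of 51 partner and other regulator genes in 7 lists. Twist2 at -1.02 and Prdm1 at -0.68 lie farthest to the left and Atf3 at 0.66 farthest to the right.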

How the data were processed

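Biotin-labelled total RNA of 8 keratinocyte cultures, 4 wild-type and 4 Nfkbiz knockout, was measured on one-colour oligonucleotide arrays. The deposited table of the authors spans 1.57 to 13.9, which was read as log2 signal, its scale, summarisation, normalization and build being not given in the sources used here. The same holds for scan dates and batches, and the number of arrays limits the precision.

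Of 11373 probe sets, 9374 had 1 symbol in the platform annotation, 479 had several and 1520 had none. Each gene was represented by its probe set with 1 symbol and the greatest mean, which gave 9294 genes. None of the 78 members had more than 1 such probe set, 9 were represented by _a_at sets and 1, Irf2, by an _s_at set that can bind several transcripts. All 78 were found in the RefSeq table of GRCm38.p6 by Entrez identifier. A total of 4 probe sets with several symbols, naming Foxo3, Hoxd3 with Hoxd4, Hoxb7 with Hoxb8, and Foxm1, were left out.

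Differences are knockout minus wild-type from limma 3.58.1 (lmFit, then eBayes) under R 4.3.3, fitted over all genes without a covariate, with Benjamini-Hochberg adjustment over all 9294 and a threshold of 0.05. Rose, fell and called are used of genes that passed. SE are moderated, and intervals are 95% intervals of the same fit. The function was tested on simulated data. Members and lists were chosen with earlier results of these data known. Named genes are the called members, members whose groups do not overlap, those of 30 preset epidermal regulators that were measured (8), and up to 4 called genes of each partner list with the largest change. The remaining members, and marker genes, are given as values of their families and lists.

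Arrays of 1 genotype differed from each other with an SD of 0.157 to 0.175 across probe sets, so none was a duplicate.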

Additional observations from a re-analysis of the deposited data

Results flagged for a closer look

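Among the 27 named genes, each genotype's 4 arrays were screened for a single array far from the other 3 by Dixon's ratio at its 95% critical value. Of the 54 groups looked at, 2 were past it, and chance alone gives about 1 in 20. For Irf1, knockout replicate 2 had a log2 signal of 8.66, below the other knockout arrays at 8.79 to 8.80 and still above the wild-type arrays. For Twist2, wild-type replicate 2 had 8.44, below the other wild-type arrays, which all had 8.53 after rounding.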

How the results depend on the processing

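The 15 alternatives used quantile normalization once more, arrays with their medians set equal, only genes above the lowest 25% or at a mean log2 signal of at least 5, the mean of probe sets, eBayes with a trend, a replicate block, or 7 of the 8 arrays. No named gene changed direction. Counts of calls stayed within 1.5 times of those reported: over fits without 1 array they ran from 598 to 687 for all genes, from 10 to 13 for the members, from 5 to 6 for those higher, from 5 to 8 for those lower, and from 8 to 10 for partner genes. With the replicate block, 659 genes and 10 members were called, and Foxj1, Hoxa10 and Ajuba missed the threshold (adjusted p = 0.0937, 0.0596 and 0.0769). It changed no other call of a named gene. The labels give same-numbered arrays of the genotypes no link beyond the number. Their deviations from the group means correlated at -0.0491 to 0.0855 across genes, and not every array correlated best with its own number. With 4 arrays per genotype, these correlations cannot exclude a shared preparation. Of the 12 members called, 10 were called in every alternative that tested them, the exceptions being Foxj1 and Hoxa10. Leaving out genes with low signal removed Hoxa10, Hoxb5, Stat4, Foxj1 or Twist1 from the fits that set such a limit. With genes under 5 left out, 13 of the 35 members tested were called, 5 higher and 8 lower, among them Elf3, Gata3, Sox13 and Hoxc9. Fewer genes were tested in that fit, and 1055 of its 4414 genes were called. Centring moved the median difference over all genes from -0.01 to 0.02. Both means lay under the array medians for 39 of the 78 members, which limits what can be said of them.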
